A study of Mus musculus with 18 samples.

Results

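The growth hormone receptor pathway was followed in perigonadal white adipose tissue through 9 genes, chosen by symbol in the table of all 16272 tested genes and joined to the other comparisons by Ensembl identifier. They are the receptor gene *Ghr*, the kinase gene *Jak2*, the transcription factor genes *Stat5a*, *Stat5b* and *Stat3*, and the feedback inhibitor genes *Cish*, *Socs1*, *Socs2* and *Socs3*. All 9 had passed the filter on low counts. The 18 libraries came from female wild-type C57BL/6J mice that were 9 weeks old when purchased, were housed singly and all had a running wheel. All were older at sacrifice. The 6 activity-based anorexia (ABA) mice had scheduled feeding and were sacrificed at a fixed loss of body weight. The 6 weight-restored (WR) mice went through the same loss, were then fed ad libitum and were sacrificed after holding the regained weight for 2 days. The 6 control (CON) mice were fed ad libitum, and each was sacrificed together with an ABA mouse, whereas no age-matched control of WR mice is described, so age and time with the wheel cannot be told apart from weight restoration. Per-mouse values were not analysed here, and each value below is a fitted difference between groups of 6 mice with its standard error (SE).

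Growth hormone binds its receptor at the cell surface, and the kinase JAK2, which sits on the inner part of the receptor, then phosphorylates the receptor and STAT5A and STAT5B. The phosphorylated STATs enter the nucleus and switch on genes that include *Cish* and the *Socs* genes, whose products bind the receptor or JAK2 and dampen the signal. Growth hormone is known in fat for raising lipolysis and opposing insulin. STAT3, the usual partner of leptin and interleukin 6 receptors, shares JAK2 and the SOCS3 brake with this pathway.

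STAT dimers recognise the palindrome TTCNNNGAA, where N is any base, so the promoters that hold it are shown as background to the feedback genes, several of which are known STAT targets. The RefSeq promoter table on GRCm38.p6 gave 11 windows of 300 bases (250 before and 50 after a start site) for 8 of the 9 genes, and none for *Socs2*. The palindrome reads the same on both strands and was present in 2 of these 8 genes, *Cish* and *Socs3*, and in 8.30% of all 32851 windows. The *Cish* window, on chromosome 9, held 2 copies, and 0.457% of all windows held 2 or more. They begin at bases 1 and 12 counted from the start site, and all 30 bases of the stretch shown lie in annotated exons. The *Socs3* copy, on chromosome 11, begins at base -154 from the start site. The stretch shown around it lies outside annotated exons but inside the annotated span of the gene (117966079 to 117970047). The windows of *Ghr*, *Jak2*, *Stat5a*, *Stat5b*, *Stat3* and *Socs1* did not have these letters. A match is a run of letters and not a measured binding site. Capitals mark the palindrome, and both stretches are written 5′ to 3′ on the strand of the gene.
Cish, chr9:107296655-107296684, plus strand: agttTTCCTGGAAagTTCTTGGAAatctgt
Socs3, chr11:117969452-117969616, minus strand: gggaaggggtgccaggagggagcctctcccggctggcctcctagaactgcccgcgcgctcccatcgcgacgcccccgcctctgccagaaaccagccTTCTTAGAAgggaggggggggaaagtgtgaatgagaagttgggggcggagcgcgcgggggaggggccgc

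The receptor was by far the most abundant member. *Ghr* (ENSMUSG00000055737) spans 265733 bases of chromosome 15, from 3317760 to 3583492, and averaged 9.95 log2 CPM (counts scaled to the size of the library) over all libraries, rank 72 of 16272 genes. Divided by the joint length of its annotated exons, its level was 6.77 log2 CPM per kb. On the same scale the STAT and JAK genes lay close together, with *Stat3* at 3.93, *Stat5b* at 3.61, *Stat5a* at 3.50 and *Jak2* at 3.33 log2 CPM per kb. The feedback genes were lower, with *Socs3* at 1.89, *Socs2* at 1.19, *Cish* at 0.68 and *Socs1* at -0.78 log2 CPM per kb. Their order depends on this division, since annotated exons of *Cish* jointly cover 6419 of its 6759 bases. Undivided averages were 4.44 for *Socs2*, 3.42 for *Socs3*, 3.37 for *Cish* and 0.76 log2 CPM for *Socs1*. The levels of different genes carry no error here and neighbours in this order were not tested against each other. *Stat5b*, *Stat5a* and *Stat3* are neighbours within 158810 bases of chromosome 11 (100780731 to 100939540). *Stat5a* and *Stat3* run toward each other and overlap by 72 bases at their ends, so reads there are uncertain unless strand was used in counting, which is not given in the sources used here. Of the 31-base words in annotated *Stat5a* transcripts, 11.5% also occur in *Stat5b*, and 15.1% of those of *Stat5b* occur in *Stat5a*. For 75-base words the shares were 5.12% and 6.99%. Reads that fall wholly in shared stretches can only be divided by estimate. Their share is not known, since read length is not given in the sources used here.

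In ABA, the receptor and both STAT5 genes were lower than in CON, together with the feedback genes *Socs1* and *Socs3*. Of the 9 genes, 5 fell and none was listed as higher, where 46.3% of all tested genes changed, 25.4% falling and 20.9% rising (limma, adjusted p under 0.05). This table lists changed genes only, so unadjusted p-values of the other members were not available. *Ghr* was 3.42-fold lower, or -1.77 on the log2 scale (SE 0.25, adjusted p = 1.99e-05), with a 95% confidence interval of -2.29 to -1.26. In fitted levels this was 459 CPM in ABA against 1567 CPM in CON. *Stat5a* was 2.08-fold lower (log2 -1.06, SE 0.19, adjusted p = 0.00026), while *Stat5b* was 1.22-fold lower (log2 -0.29, SE 0.07, adjusted p = 0.00152). Their 95% intervals ran from -1.46 to -0.65 for *Stat5a* and from -0.43 to -0.15 for *Stat5b*, but the difference between the genes was not tested. In bulk tissue, fewer cells of a type and less RNA per cell cannot be told apart.

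The SOCS genes that fell encode proteins with different targets: SOCS1 acts mainly on JAK kinases and SOCS3 on JAKs held at cytokine receptors such as those of the interleukin 6 family. *Socs1* (ENSMUSG00000038037) was 3.70-fold lower in ABA mice than in CON (log2 -1.89, SE 0.29, adjusted p = 4.86e-05). It was also the least abundant member, with fitted levels of 0.82 CPM in ABA, 1.92 CPM in WR and 3.05 CPM in CON. The ABA level lies under the 1 CPM that the filter asked of 5 or more samples. *Socs1* may thus have passed mainly through the groups where it is higher, and the size of its fall is uncertain. *Socs3* (ENSMUSG00000053113) was 2.17-fold lower (log2 -1.12, SE 0.19, adjusted p = 0.000143), with 7.94 CPM in ABA against 17.2 CPM in CON. *Cish*, which encodes a STAT5-induced inhibitor that occupies the receptor, was not listed as changed in ABA. Its derived log2 difference was -0.19 with a 95% interval of -1.05 to 0.67, wide enough to hold a fall or a rise of over 1.5-fold.

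*Jak2*, *Stat3* and *Socs2* were listed as changed in neither comparison with CON, which limits how large their fitted differences can have been. Such limits leave out sampling error and are not confidence intervals, so limits on 1 side of 0 do not show a change. The threshold of each table and the values in the table of all genes place the fitted ABA minus CON of *Jak2* between about -0.24 and -0.03 log2. That of *Stat3* lies between about -0.20 and 0.27. For *Socs2* the limits were wide, from about -1.22 to 1.38, so a change of up to 2-fold in either direction was not detectable in these mice.

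**Figure D1:**
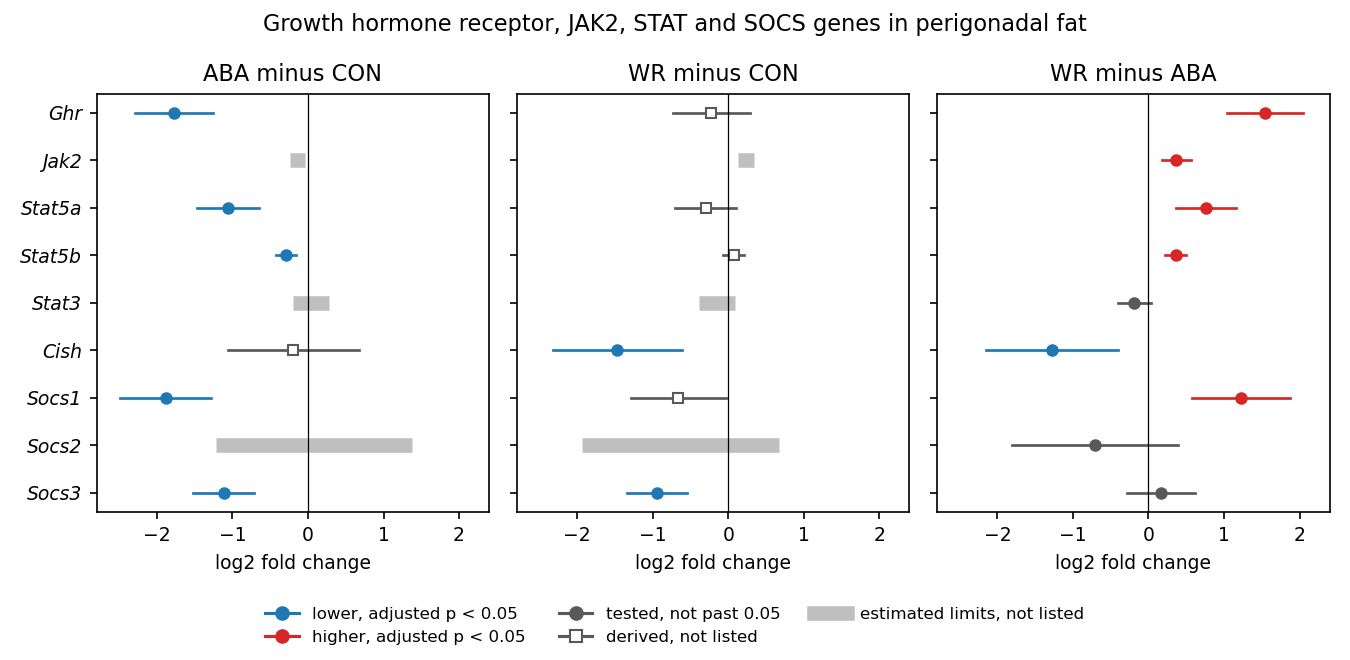
Log2 fold change (x axis) of the 9 genes in ABA minus CON, WR minus CON and WR minus ABA, 6 mice per group, with 95% confidence intervals as lines. Filled circles are deposited values and open squares are values derived from the other comparisons. Grey bars are estimated limits of the fitted value, without sampling error, for genes that the tables against CON do not list. *Ghr* and *Stat5a* are low in ABA. Their derived WR minus CON values are -0.23 and -0.30, with intervals that include 0 and also hold lower values. *Socs3* is low in both ABA and WR, and *Cish* is low in WR.

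After weight restoration, *Cish* and *Socs3* were lower than in CON, and the receptor and STAT5 genes were not listed as different from CON. *Cish* and *Socs3* were the only members listed in WR versus CON (2 of 9, both lower), where 7.21% of all tested genes changed, 3.18% being lower and 4.04% higher. No member was listed as higher by limma. *Cish* and *Socs3* are also the members whose promoter window held the TTCNNNGAA motif, an observation made after the values were seen and over 8 genes. Any link between the motif and these levels was not tested. *Cish* (ENSMUSG00000032578) was 2.76-fold lower in WR than in CON (log2 -1.47, SE 0.41, adjusted p = 0.0387, limma), with a 95% interval of -2.32 to -0.61. *Socs3* was 1.93-fold lower (log2 -0.95, SE 0.19, adjusted p = 0.00999). With the stricter Benjamini-Yekutieli adjustment neither passed (adjusted p = 0.398 for *Cish* and 0.103 for *Socs3*). *Ghr* in WR was derived at -0.23 log2 against CON (95% interval -0.74 to 0.28), *Stat5a* at -0.30 (-0.70 to 0.10) and *Stat5b* at 0.07 (-0.07 to 0.21). *Socs1* was derived at -0.66 log2 with an unadjusted 95% interval of -1.29 to -0.03, and it did not pass the adjusted threshold of the table. The estimated limits of the fitted WR minus CON were about 0.13 to 0.34 for *Jak2*, -0.38 to 0.09 for *Stat3* and -1.93 to 0.67 for *Socs2*. They again leave out sampling error, and none of these genes was called.

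Between WR and ABA, where every tested gene has a value, 6 of the 9 genes differed, against 45.9% of all tested genes. *Ghr*, *Stat5a*, *Stat5b*, *Jak2* and *Socs1* were higher in WR and *Cish* was lower, where 25.0% of all tested genes were higher and 20.9% lower. *Ghr* was 2.92-fold higher in WR than in ABA (log2 1.55, SE 0.24, adjusted p = 5.36e-05), which undid 87.2% of its log2 fall. *Stat5a* was 1.69-fold higher (log2 0.76, SE 0.19, adjusted p = 0.00332), or 71.8% of its fall. *Stat5b* was 1.29-fold higher (log2 0.36, SE 0.07, adjusted p = 0.000219), or 125% of its fall, a fitted level past that of CON though the derived interval against CON included 0. *Jak2* was also 1.29-fold higher (log2 0.37, SE 0.09, adjusted p = 0.00284). *Socs1* was 2.34-fold higher (log2 1.22, SE 0.31, adjusted p = 0.00364), or 64.9% of its fall. These comparisons share the ABA mice with ABA versus CON, so an extreme ABA value enters both.

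*Cish* and *Socs3* followed other courses. *Cish* was 2.42-fold lower in WR than in ABA (log2 -1.28, SE 0.42, adjusted p = 0.0175, limma), with fitted levels of 13.2 CPM in ABA, 5.47 CPM in WR and 15.1 CPM in CON. The difference between WR and ABA was not called at an adjusted p under 0.01 or with the Benjamini-Yekutieli adjustment (adjusted p = 0.18). Between ABA and CON the derived interval of *Cish* included 0. *Socs3* differed by 0.17 log2 between WR and ABA (SE 0.21, adjusted p = 0.543, 95% interval -0.28 to 0.62), with fitted levels of 7.94 CPM in ABA, 8.94 CPM in WR and 17.2 CPM in CON. WR had undone 15.2% of its log2 fall. *Stat3* differed by -0.19 log2 (SE 0.10, adjusted p = 0.153) and *Socs2*, which encodes a negative regulator of growth hormone signalling, by -0.71 (SE 0.53, adjusted p = 0.284, 95% interval -1.81 to 0.39).

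**Figure D2:**
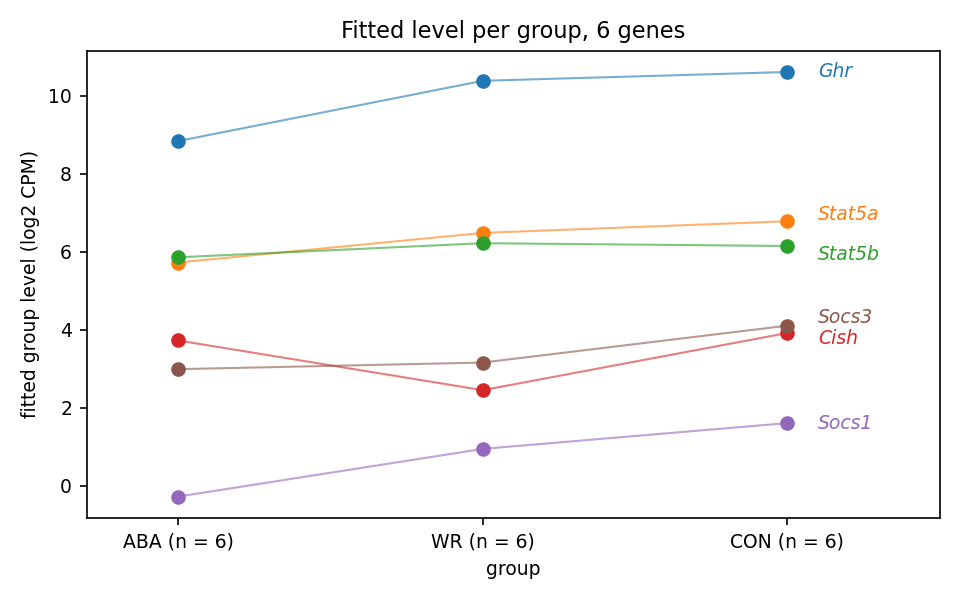
Fitted level (y axis, log2 CPM) in ABA, WR and CON for the 6 genes whose 3 comparisons could be given, with thin lines joining the points of a gene. *Ghr* lies highest with 8.84 in ABA, 10.4 in WR and 10.6 in CON, *Cish* is lowest in WR at 2.45, and *Socs3* stays near 3 in ABA and WR against 4.11 in CON. No error is drawn because the levels are solved from group differences.

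**Figure D3:**
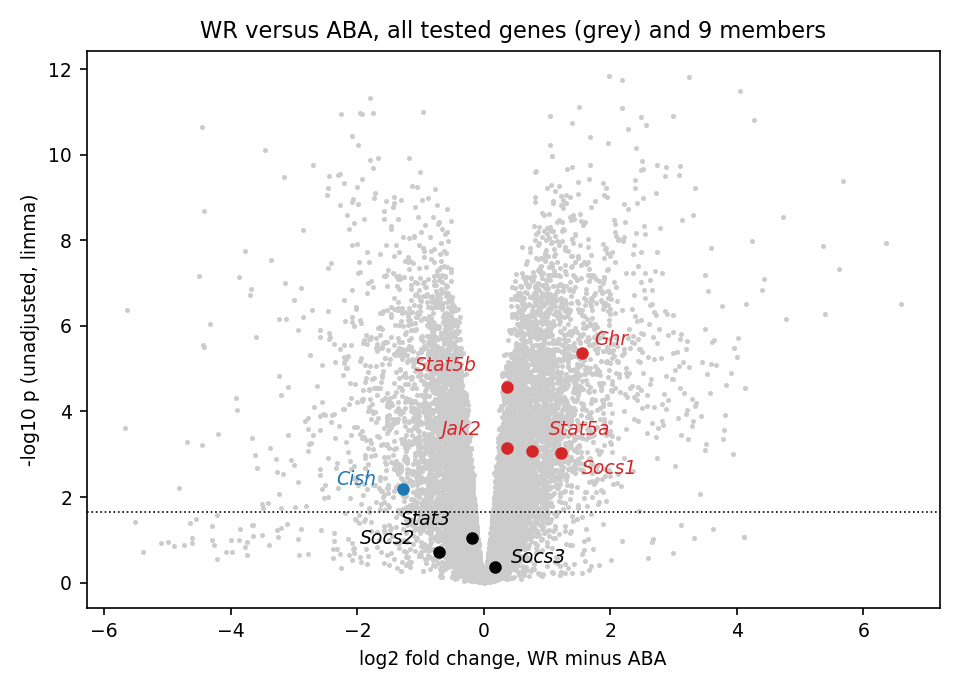
Unadjusted limma p as -log10 (y axis) against the WR minus ABA log2 fold change (x axis) of all 16272 tested genes in grey, with the 9 genes labelled. Points above the dotted line have an adjusted p under 0.05. *Ghr*, *Stat5b*, *Jak2*, *Stat5a* and *Socs1* (red) are higher in WR, *Cish* (blue) is lower, and *Stat3*, *Socs2* and *Socs3* (black) lie below the line.

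Among the members, *Socs2* and *Cish* had the widest errors for their level. The SE of WR minus ABA was 0.53 log2 for *Socs2*, 4.89 times the median of the 2544 genes within 0.5 log2 CPM of its average level, and it exceeded 99.6% of them. For *Cish* the SE of 0.42 was 3.10 times the median of 2232 such genes and exceeded 97.4%. The SE of *Stat5a* was 2.03 times the median of its neighbours in level, that of *Socs3* 1.61 times and that of *Ghr* 1.58 times. *Jak2*, *Stat3* and *Socs1* lay near theirs (0.976, 1.05 and 1.16 times) and *Stat5b* below (0.693 times). This comparison was added after the values were seen, and whether a few mice or a wide spread of all mice lies behind it was not tested.

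Genes whose 2 fold changes (ABA minus CON and WR minus ABA) lay nearest those of *Ghr* by Euclidean distance, among 5032 protein-coding genes changed in ABA with at least 3 log2 CPM, were *Myl1*, *Pi15* and *Ccr2*, at distances of 0.045, 0.064 and 0.095 log2. The likeness rests on 3 group means. For *Cish* the nearest such genes, *Mrps18a*, *Mrpl47* and *Trmt10c*, were 0.717 to 0.736 away. *Cish* itself was not listed in ABA versus CON, so genes that like it did not change there were not among the candidates, and the distance says nothing of how particular its course is. *Socs2* has no ABA minus CON value and could not be compared.

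Genes around the members were described with 7 lists, together 94 tested genes, of which 67.0% changed in ABA versus CON (26 higher, 37 lower), 10.6% in WR versus CON (6 higher, 4 lower) and 67.0% in WR versus ABA (34 higher, 29 lower). The background shares are the 46.3%, 7.21% and 45.9% given above. They cover all tested genes, down to -3.01 log2 CPM, and were not matched to the lists for level. The lists were also chosen with earlier results of these data known, so the shares are a description only. Among the other JAK kinases and STATs, 5 of 7 fell in ABA and the same number were higher in WR than in ABA, with a median of 0.49 log2 in WR minus ABA against 0.01 over all tested genes. *Stat2*, a mediator of interferon signals, was 1.88-fold lower in ABA (log2 -0.91, SE 0.12, adjusted p = 1.15e-05), the interleukin 4 transducer *Stat6* 1.34-fold and *Jak3* 1.36-fold. *Tyk2* was 1.20-fold lower in ABA mice than in CON and 1.17-fold higher in WR than in CON (adjusted p = 0.00135 and 0.023). Of 8 other genes of the SOCS box family, 4 fell in ABA, including *Socs5* (1.34-fold), *Socs4* (1.19-fold) and *Asb6* (1.36-fold), and 3 were higher and 3 lower in WR relative to ABA, with *Socs6* 1.25-fold lower.

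Receptors that use the same kinases and STATs moved in both directions. Of 21 tested cytokine receptor genes, 8 fell and 5 rose in ABA, and 11 were higher and 5 lower in WR relative to ABA. *Il6ra*, the ligand-binding chain for interleukin 6, was 3.45-fold higher in ABA than in CON (log2 1.79, SE 0.21, adjusted p = 4.52e-06), opposite in sign to *Ghr*. *Ifngr2* of the interferon gamma receptor was 2.01-fold lower and *Csf2ra* 1.61-fold lower in ABA. *Il3ra* and the erythropoietin receptor *Epor* were 1.64-fold and 1.92-fold higher in WR than in CON (adjusted p = 0.00517 and 0.0329). In ABA both were lower than in CON, 1.41-fold and 1.81-fold. *Il11ra1* was 1.17-fold lower in ABA and 1.25-fold lower in WR than in CON, and was not called between WR and ABA (limma, adjusted p = 0.387). Among relatives of *Ghr* named after their values were seen, the leptin receptor *Lepr* was 3.11-fold higher in ABA than in CON (log2 1.64, SE 0.40, adjusted p = 0.003). The prolactin receptor *Prlr* was not listed in ABA versus CON and was 1.71-fold higher in WR than in ABA (adjusted p = 0.00503).

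Of 25 adaptors and phosphatases of JAK2 and the receptor, 9 rose and 8 fell in ABA. *Sh2b2*, an adaptor that binds JAK2, was 2.69-fold higher in ABA than in CON (log2 1.43, SE 0.18, adjusted p = 7.01e-06), the kinase *Lyn* was 1.56-fold lower and the STAT3 inhibitor *Pias3* 1.46-fold lower. *Adam17*, the protease that sheds the extracellular part of the receptor, was 1.18-fold higher in WR than in CON and 1.33-fold higher in WR than in ABA (adjusted p = 0.0471 and 0.000135). The adaptor *Sh2b3* was 1.16-fold higher in ABA and 1.24-fold higher in WR than in CON. It was not called between WR and ABA (limma, adjusted p = 0.338).

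Targets and carriers of the growth hormone axis changed in 9 of 10 cases in ABA, 5 lower and 4 higher. *Igf1*, a growth factor induced by growth hormone, was 5.03-fold lower in ABA than CON and 3.75-fold higher in WR than in ABA, and the binding protein *Igfbp5* was 5.72-fold lower and 4.87-fold higher in the same order. *Igfbp3*, another carrier of IGF1, was 7.91-fold higher in ABA, and the receptor *Igf1r* was 1.84-fold higher (adjusted p = 2.35e-05 and 0.00018). *Pik3r1*, a regulatory subunit of phosphoinositide 3-kinase, was 1.71-fold lower in ABA and 1.81-fold lower in WR than in CON (adjusted p = 0.00347 and 0.0157). Of 10 genes tied to STAT5 in fat cells, 4 rose and 1 fell in ABA, and 6 were lower in WR than in ABA, with a median of -0.50 log2. *Pdk4*, which spares glucose, was 8.72-fold higher in ABA than in CON (log2 3.12, SE 0.36, adjusted p = 2.9e-06), and the lipase gene *Pnpla2* 1.64-fold higher. The adipogenic factor *Cebpb* was 1.92-fold lower in WR than in CON and 2.84-fold lower than in ABA, and *Pparg* was 1.35-fold lower in WR than in ABA.

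Of 15 STAT3 target genes, 7 fell and 4 rose in ABA. *Ccnd1*, a cyclin of the G1 phase, was 3.48-fold lower and the acute phase gene *Hp* 3.71-fold lower in ABA mice than in CON, while *Cebpd* was 4.55-fold higher (log2 2.19, SE 0.34, adjusted p = 5.52e-05). The kinase gene *Pim1* was 1.54-fold higher in ABA than in CON and 1.60-fold lower in WR than in CON (adjusted p = 0.00478 and 0.0337). *Saa3* was 2.11-fold higher in ABA and 2.65-fold higher in WR than in CON (limma, adjusted p = 0.0264 and 0.032). It was not called between WR and ABA (adjusted p = 0.423).

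**Figure D4:**
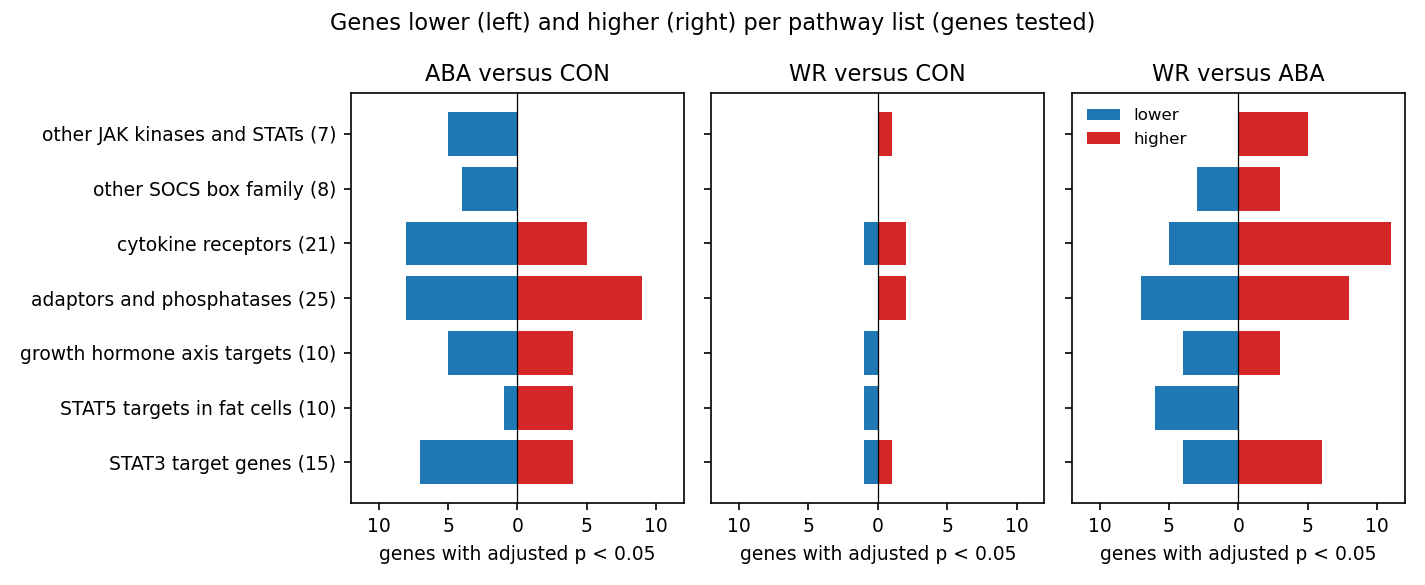
Number of genes (x axis) lower (blue, left) and higher (red, right) at an adjusted p under 0.05 in each of the 7 lists, with the genes tested in brackets, for ABA versus CON, WR versus CON and WR versus ABA. The other JAK and STAT genes lie on the lower side alone in ABA (5 of 7), while cytokine receptors lie on both sides (8 lower, 5 higher).

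Markers of the tissue's cell types moved in the same comparisons. The 6 fat cell markers averaged 7.76 to 12.4 log2 CPM, led by *Fabp4* (12.4) and *Cidec* (11.1), the highest of all marker lists, and 1 rose and 1 fell in ABA. Of 6 macrophage markers, 4 fell in ABA, with *Mrc1* 1.86-fold lower, and all 6 were higher in WR than in ABA. Of 6 fibroblast and progenitor markers, 4 fell and 1 rose in ABA. The collagen gene *Col3a1* was 11.8-fold lower and the proteoglycan gene *Dcn* 1.53-fold higher. Of 5 mesothelial markers and of 5 pericyte and smooth muscle markers, 3 each fell in ABA and 3 each were higher in WR than in ABA. Against CON, where *Cish* and *Socs3* were lower in WR, the mesothelial marker *Msln* was 1.76-fold higher in WR (adjusted p = 0.0036), the pericyte markers *Rgs5* and *Notch3* were 2.0-fold and 1.65-fold higher, and the progenitor marker *Pdgfra* was 1.31-fold lower. No fat cell, macrophage or lymphocyte marker was listed in that comparison (limma, changed genes only). Of 6 endothelial markers, 1 fell in ABA, 5 were higher in WR than in ABA and 2 were higher in WR than in CON. The latter were *Cldn5* (2.56-fold) and *Cdh5* (2.09-fold), with adjusted p = 0.00923 and 0.0293 (limma). The tested lymphocyte markers (5 of 8) averaged at most 0.67 log2 CPM, and *Cd3e* was the only marker among them that changed in ABA, where it was 1.99-fold higher. Of 6 epithelial and mammary markers, *Csn2* and *Wap* were not tested and the other 4 were listed in neither table against CON, with adjusted p of 0.249 to 0.854 in WR versus ABA (limma), all of them over 0.05 unadjusted as well. Of 8 ovary and uterus markers, *Amh*, *Fshr*, *Cyp11a1* and *Pax8* did not pass the filter on low counts, and of the other 4, 1 rose and 2 fell in ABA. What part these shifts had in the values of the 9 genes was not tested.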

How the data were processed

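RNA of perigonadal fat (18 libraries: 6 ABA, 6 WR, 6 CON) was sequenced from TruSeq libraries. The authors checked reads with FastQC 0.11.8 and trimmed them (Trimmomatic 0.38). Alignment was to the GRCm38.p6 build by STAR 2.5.1a, and RSEM 1.3.0 gave gene-level estimates. Genes reaching 1 CPM in 5 or more samples entered limma-voom, after the authors' TMM scaling in edgeR, with condition as the only term and none for the yoking of CON to ABA mice. The deposited tables hold the authors' log2 fold changes and average log2 CPM, the moderated t score, and p-values with Benjamini-Hochberg adjustment over 16272 genes. The tables against CON list only genes with an adjusted p under 0.05. Depth per library was not analysed here, so no counting interval is given.

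From these values, the SE is the log2 fold change divided by its t, and 95% intervals use 18.4 degrees of freedom, found by matching t to p. The identity between the 3 comparisons (to 1.02e-14 over 602 genes) and the low *Lep* in ABA fixed the signs. A missing comparison with CON was derived from the other comparisons, with the root mean square of their SEs, whose ratio to the deposited SE had a median of 1.01 and ran between 0.924 and 1.41 for 95% of genes. Where both were missing, limits were set from each table's largest possible t (2.48 in ABA and 3.33 in WR against CON) and the SE in WR versus ABA, widened for the range of its ratio to the other SEs. The WR minus ABA value entered them without its error, so they bound the fitted value alone. Group levels were solved from the differences and the average under equal weights, and are approximate. Lengths and positions are from GENCODE M21 on GRCm38. Scripts ran in Python 3.11.15 with SciPy 1.17.1, and the main formulas were tried on simulated data. There all comparisons of a gene had the same SE, so the derived SE had to match and was not put to a test. The limits with the widened SE were not simulated. The members and lists were chosen with earlier results of these data known. Named are all members and, per list, up to 4 genes with the smallest adjusted p in WR versus ABA, those changed in WR versus CON, and up to 2 markers of the highest level. The nearest genes to *Ghr*, *Cish* and *Socs2* follow a rule of the same kind. *Lepr* and *Prlr* are outside it. Alternatives were other thresholds, adjustments, gene filters and SEs.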

Additional observations from a re-analysis of the deposited data

How the results depend on the processing

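The 5 members lower in ABA than in CON remained 5 at an adjusted p under 0.01 and with the Benjamini-Yekutieli adjustment, and 4 at a fold limit of 1 on the log2 scale, where *Stat5b* was lost. In WR versus CON the 2 members became 1 at an adjusted p under 0.01 (*Socs3*), 1 at the fold limit (*Cish*) and 0 with the Benjamini-Yekutieli adjustment of the limma p-values, although both have an unadjusted p under 0.05. In WR versus ABA the 6 members became 3 at the fold limit (*Ghr*, *Socs1* and *Cish*) and 5 at an adjusted p under 0.01 or with Benjamini-Yekutieli, both without *Cish*, and stayed 6 among protein-coding genes or genes of at least 0 log2 CPM. Of the 94 list genes, the 63 changed in ABA versus CON became 21 at the fold limit, the 63 in WR versus ABA became 25, and the 10 in WR versus CON became 1 at an adjusted p under 0.01, 1 at the fold limit and 0 with Benjamini-Yekutieli. Shares of all tested genes were computed at an adjusted p under 0.05 only. The counts at other settings therefore cannot be set against a background. Taking the larger SE for the derived WR minus CON values left the side of 0 of each interval as it was. The SEs exchanged were nearly equal (0.300 and 0.311 log2 for *Socs1*), so this check could move little. The upper limit of *Socs1* came to -0.009, so its side of 0 is not secure. No direction could reverse at any of these settings. Each kept the same log2 fold changes and altered only thresholds, adjustments, gene filters or SEs. The checks therefore say nothing about whether the direction of a change is secure. No paired analysis was possible because no per-mouse values were used here and the labels do not say which CON mouse was yoked to which ABA mouse. The authors' fit has condition as its only term and so ignores that yoking, and its effect was not tested. Without per-mouse values, leaving out single mice could not be run either. The deposited fits therefore set the limits: *Cish* and *Socs2* have wide errors, *Socs1* is near the filter on low counts, and reads shared by *Stat5a* and *Stat5b* or by *Stat5a* and *Stat3* ends are uncertain.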
